A study of Mus musculus with 4 samples.

Results

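Mediator is a large complex that bridges transcription factors bound to DNA and RNA polymerase II at promoters. Its core is divided into a head and a middle module, which contact the polymerase, and a tail module, to which many activators bind, and MED14 is the scaffold that holds them together. A separate kinase module, made of CDK8 or its paralogue CDK19, cyclin C, MED12 or MED12L and MED13 or MED13L, binds the core reversibly and, while bound, hinders its contact with the polymerase. MED1, in the middle module, is the subunit through which many nuclear receptors, the glucocorticoid receptor among them, contact Mediator. The genes described here are those of the deposited gene table whose symbol is Med followed by a number, with or without a final l, together with Cdk8, Cdk19 and Ccnc, and they came to 32 of 22667 genes. The rule itself uses gene symbols and no measured value. Med20 had no row under that symbol in the gene table and was not analysed here.

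The cells were N2a, a mouse neuroblastoma line, and all 4 groups were transfected with siRNA. Cells that received a control siRNA (siControl) or siRNA against Arglu1 (siArglu1) for 48 h were treated for 4 h with vehicle (EtOH, Veh) or with the synthetic glucocorticoid dexamethasone at 100 nM (Dex). Arglu1 encodes a nuclear protein that was studied as a coactivator of the glucocorticoid receptor and as a regulator of splicing. mRNA of 3 cultures was pooled for each group before sequencing, so that each of the 4 groups is 1 library. Values for all 4 are given in the order siControl Veh and Dex, then siArglu1 Veh and Dex. No difference given below has a replicate check, no p-value was computed between a pair of libraries, and the intervals cover counting error only. In such bulk RNA, a change in the share of cells that express a gene and a change of its RNA per cell cannot be told apart.

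The libraries held between 66074574 and 86541444 reads on genes. Arglu1 stood at 26.4% of its siControl level in vehicle and at 22.5% in Dex. Of 11 markers of sympathetic neuroblastoma cells, 9 reached a cRPKM of 1 in every library, and the summed level of the list was between 1216 and 1702 cRPKM. These markers moved with knockdown, with 3 of 9 tested higher and 2 lower by 0.81 on the log2 scale in each pair. In vehicle the log2 ratio was 2.001 for Dbh, 1.17 for Phox2a, 1.16 for Gata3, -1.34 for Gata2 and -1.26 for Th, and the part of these shifts in the results below was not tested. Of 15 markers of fibroblasts, astrocytes, blood, epithelium and endothelium, 14 were in the table, and their summed level was between 2.67 and 3.47 cRPKM, with a maximum of 1.01 for a single gene. The fibroblast marker Col3a1 and the blood marker Ptprc were listed at 0 cRPKM in every library. Other markers of these cell types were not, with 0.74, 0.51, 0.7 and 0.66 cRPKM for Pdgfra (fibroblast) and 0.55, 0.59, 0.41 and 0.52 for Cd68 (blood). Of the 14, 6 were tested. After knockdown in vehicle, 1 of these was higher by 0.81 (Dcn, fibroblast, 1.16) and 1 lower (Pecam1, endothelium, -1.07).

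The subunit genes were measured at very different levels, and most genes of the kinase module were among the lowest. Levels are compared between genes as cRPKM, a read count divided by the mappable length of the gene and by the size of the library. The highest mean over the 4 libraries was that of Med10, a middle subunit, with 82.28 and 83.75 cRPKM in siControl (Veh and Dex) and 105.23 and 94.39 cRPKM in siArglu1 (Veh and Dex). Med21, which pairs with MED7 in the hinge of the middle module, followed with 65.48, 69.55, 113.42 and 99.09 cRPKM in that order. Med30, a small subunit of the core, stood at 87.92, 88.03, 90.6 and 77.34 cRPKM. The order of these 3 genes was not the same in every library, since Med30 was the highest in both siControl libraries and Med21 in both siArglu1 libraries.

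At the other end, Med26, which links Mediator to elongation factors, stood at 3.95, 3.74, 3.89 and 4.22 cRPKM, and Med13l at 5.4, 5.25, 3.49 and 4.99 cRPKM. The mean of Med10 was 23.1 times that of Med26. Med12l, the paralogue of Med12, had 3 reads in siArglu1 Dex and 1 read in each of the other libraries, with a listed level of 0 cRPKM, and no ratio is given for it. The other 31 genes had at least 75 reads over the 4 libraries, the minimum for a comparison. Of the 32, 7 had a mean of at least 40 cRPKM and 8 had a mean under 10 cRPKM.

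By module, the median level in siControl Veh was 38.8 cRPKM for the 6 head genes, 28.9 for the 9 middle genes, 24.6 for the 5 tail genes and 6.54 for the 7 genes of the kinase module, Med12l included. Med27, Med28, Med29 and Med30, which sources place in the head or in the tail, were kept as a group of their own and had a median of 36.3 cRPKM. The scaffold Med14 stood at 11.94 cRPKM. The ranges of the modules overlapped, from 7.97 to 71.45 cRPKM in the head, from 3.95 to 82.28 in the middle and from 16.18 to 29.33 in the tail. Within the kinase module, Cdk8 at 22.61 cRPKM was 3.46 times its paralogue Cdk19 at 6.54, and Med13 at 8.48 was 1.57 times Med13l at 5.4. The sources used here do not say how the authors assigned reads shared by such paralogues.

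**Figure D1:**
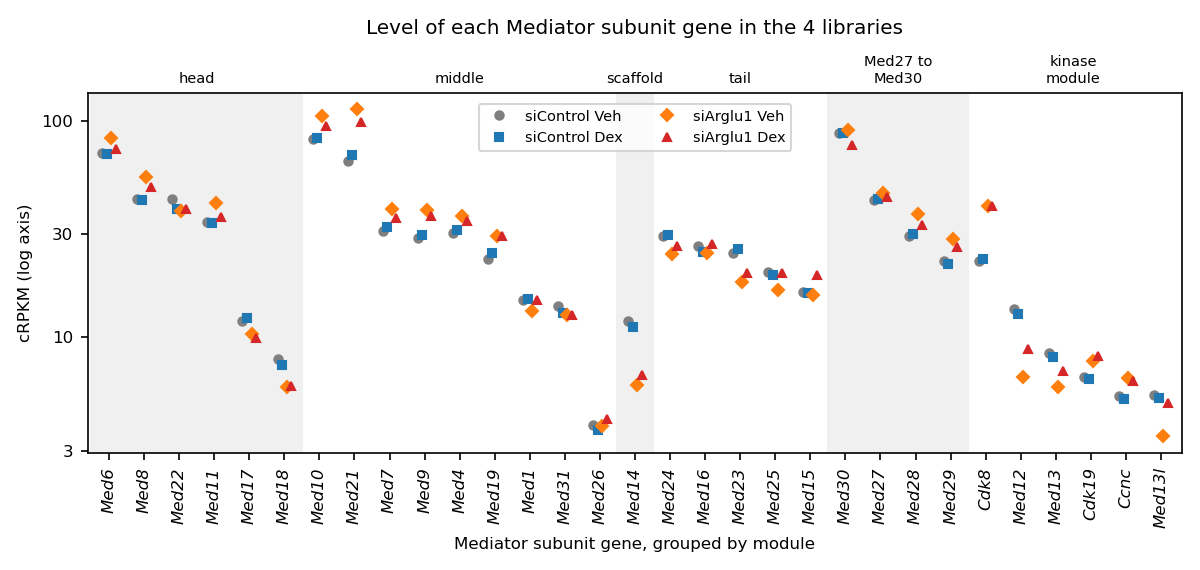
Level in cRPKM, on a log axis, of the 31 Mediator subunit genes with at least 75 reads, grouped by module and ordered within each by mean level, with 1 point per library and no error bar since each group is 1 library. Med10, Med21 and Med30 are highest and Med26 and Med13l lowest, and Cdk8 and Med21 show both siArglu1 libraries above both siControl libraries while Med12 and Med14 show them below.

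The first comparison asks whether the genes of the coactivator complex themselves depended on Arglu1. After Arglu1 knockdown in vehicle, Med12 and Med14 were lower and Cdk8 and Med21 higher by at least 0.81 on the log2 scale, the size that the study used for knockdown. These were 4 of the 31 genes compared, or 12.9%, beside 15.8% of all 12497 genes tested, so that the share was near the background. In the lower direction it was 2 of 31 beside 8.77%, and in the higher direction 2 of 31 beside 7.0%. The study drew its list of changed genes with an edgeR p-value, so that these counts by size alone do not stand for that list. In Dex, 0 of 31 reached that size, beside 5.93% lower and 6.19% higher of all genes, and Cdk8 was the nearest to it. The 31 genes had a median log2 ratio of 0.08 in vehicle, beside 0.00 for all genes, and of 0.09 in Dex, again beside 0.00.

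Med12, the subunit that activates the kinase of the module, had 6005 and 6096 reads in the siControl libraries and 2935 and 5120 reads in the siArglu1 libraries (Veh and Dex), which is 13.58, 12.79, 6.58 and 8.84 cRPKM. Both siArglu1 libraries were below both siControl libraries, and siArglu1 Veh was the lowest. The log2 ratio of knockdown over control, on reads scaled to the libraries, was -1.01 in vehicle, with a 95% interval from -1.07 to -0.95, and -0.54 in Dex, from -0.59 to -0.49. Med14 had 5456, 5488, 2776 and 4024 reads, or 11.94, 11.14, 6.03 and 6.73 cRPKM. Its 2 siArglu1 libraries were again the lower ones. Its log2 ratio was -0.95 in vehicle, from -1.02 to -0.89, and -0.74 in Dex, from -0.80 to -0.68. The share of all genes with both siArglu1 libraries on the same side of both siControl libraries was not counted, nor that of all events below. The 2 libraries of an siRNA differ in treatment and are not replicates.

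Cdk8, one of the alternative kinases of the module, had 4369 and 4819 reads in siControl and 7912 and 10234 reads in siArglu1, which is 22.61, 23.14, 40.63 and 40.44 cRPKM. Its level was nearly the same in the 2 libraries of each siRNA. It was higher after knockdown in both pairs, beside 86.4% of all genes with the same sign in both. The log2 ratio was 0.88 in vehicle, from 0.83 to 0.93, and 0.80 in Dex, from 0.75 to 0.85, with the size of 0.81 inside the latter interval. Med21 had 3310, 3790, 5778 and 6560 reads. Its log2 ratio was 0.83 in vehicle, from 0.76 to 0.89, an interval that holds the size of 0.81, and 0.50 in Dex, from 0.44 to 0.56. On the deposited cRPKM the ratio of Med21 in vehicle was 0.79, so that Cdk8 alone was higher by that size, beside 5.41% of all genes.

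The kinase module was split between its enzyme and its large subunits. The 3 genes of the enzymatic part, Cdk8, Cdk19 and Ccnc, were higher in both siArglu1 libraries than in both siControl libraries, and Med12, Med13 and Med13l were lower, although the sign of Med13 in both pairs, and that of Med13l in Dex, turned once the trend on gene length described below was removed. Cdk19 stood at 6.54, 6.43, 7.75 and 8.21 cRPKM, with a log2 ratio of 0.28 after knockdown in vehicle (0.34 in Dex). Ccnc, the cyclin that partners both kinases, stood at 5.37, 5.22, 6.53 and 6.31 cRPKM, with log2 ratios of 0.31 and 0.27. These differences were smaller than the size of 0.81, and their intervals lay above 0. The ratio of Cdk8 to Cdk19 in cRPKM was 3.46 and 3.60 in the siControl libraries and 5.24 and 4.93 in the siArglu1 libraries.

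Med13, which tethers the kinase module to the core, stood at 8.48, 8.12, 5.91 and 6.98 cRPKM, with log2 ratios of -0.49 in vehicle and -0.22 in Dex. Its paralogue Med13l stood at 5.4, 5.25, 3.49 and 4.99 cRPKM, with log2 ratios of -0.60 in vehicle and -0.08 in Dex. For both paralogues siArglu1 Veh was the lowest library and siArglu1 Dex lay between it and the siControl libraries. Neither reached 0.81. Med12l, at 1 to 3 reads per library, was not detectable beyond the floor of 3 reads in any library.

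Of the 9 genes of the middle module, 7 had a log2 ratio above 0 in vehicle and 7 in Dex, with medians of 0.37 and 0.16, and Med21 alone passed 0.81, in vehicle. Of all 31 subunit genes, 17 were above 0 in vehicle and 19 in Dex, and all genes tested had a median of 0.00 in each pair. Without the length trend 8 of the 9 middle genes were above 0 in vehicle, where Med1 turned, with a median of 0.10. In Dex it was 6 of 9, with a median of 0.16, since Med4 and Med7 turned below 0 and Med1 above it. Besides Med21 the largest ratios in vehicle were those of Med9 with 0.46 (0.28 in Dex), Med19 with 0.40 (0.26) and Med10 with 0.39 (0.16), none of which reached 0.81. Med1 had 7886, 8566, 7043 and 10245 reads, or 14.97, 15.08, 13.26 and 14.84 cRPKM. Its 4 libraries lay close together, with log2 ratios of -0.14 in vehicle, from -0.19 to -0.09, and -0.03 in Dex, from -0.07 to 0.01.

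In the tail, 0 of 5 genes were above 0 in vehicle, with a median of -0.24, and 3 of 5 in Dex, with a median of 0.03. Without the length trend 1 of 5, Med15, was above 0 in vehicle, and in Dex Med25 turned, which left 2 of 5 and a median of -0.035. Med23, a tail subunit bound by activators of signalling pathways, had the lowest ratios, -0.41 in vehicle and -0.37 in Dex. The head was mixed, with 3 of 6 genes above 0 in each pair and a range of -0.40 to 0.37 in vehicle and, in Dex, of -0.32 to 0.18. Without the length trend 2 of the 6 were above 0 in vehicle and 1 in Dex, since Med6 turned in both pairs and Med11 in Dex. Med18 and Med17 were at the lower end of the head, with -0.40 and -0.15 in vehicle and -0.32 for both in Dex. Of Med27 to Med30, 4 of 4 were above 0 in vehicle and 3 of 4 in Dex, with Med30 as the exception at -0.19. With the length trend removed it was 2 of 4 in each pair, since Med30 stood at -0.25 in vehicle and -0.35 in Dex and Med27 at -0.11 and -0.10.

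Knockdown in vehicle and knockdown in Dex share no library, and 27 of the 31 genes had the same sign in both, or 87.1%, beside 86.4% of all genes. The absolute ratio was the larger in vehicle for 25 of 31 genes, or 80.6%, beside 62.0% of all genes. Neither count was repeated with the length trend removed. Over all genes that trend was steeper in vehicle (Spearman's rho of -0.40) than in Dex (-0.23). The difference between the pairs was not tested. When knockdown and Dex were instead taken as additive terms over the 4 libraries, a model with 1 residual degree of freedom that assumes that Dex did not alter the effect of knockdown, edgeR's quasi-likelihood test called 8 subunit genes lower, beside 30.9% of all genes, and 13 higher, beside 30.8%, at a Benjamini-Hochberg adjusted p of 0.05. DESeq2 called 6 lower, beside 25.2%, and 9 higher, beside 22.9%. Med12, Med13, Med13l, Med14, Med18 and Med23 were lower by both tools, and Cdk8, Cdk19 and 5 of the middle and head genes (Med8, Med9, Med10, Med19 and Med21) were among those higher by both. These models did not remove the length trend. With it removed from the log2 ratios, Med13 stood at 0.07 in vehicle and 0.06 in Dex, and Med13l at -0.09 and 0.18. Med12, Med14, Med18 and Med23 stayed below 0 in both pairs.

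**Figure D2:**
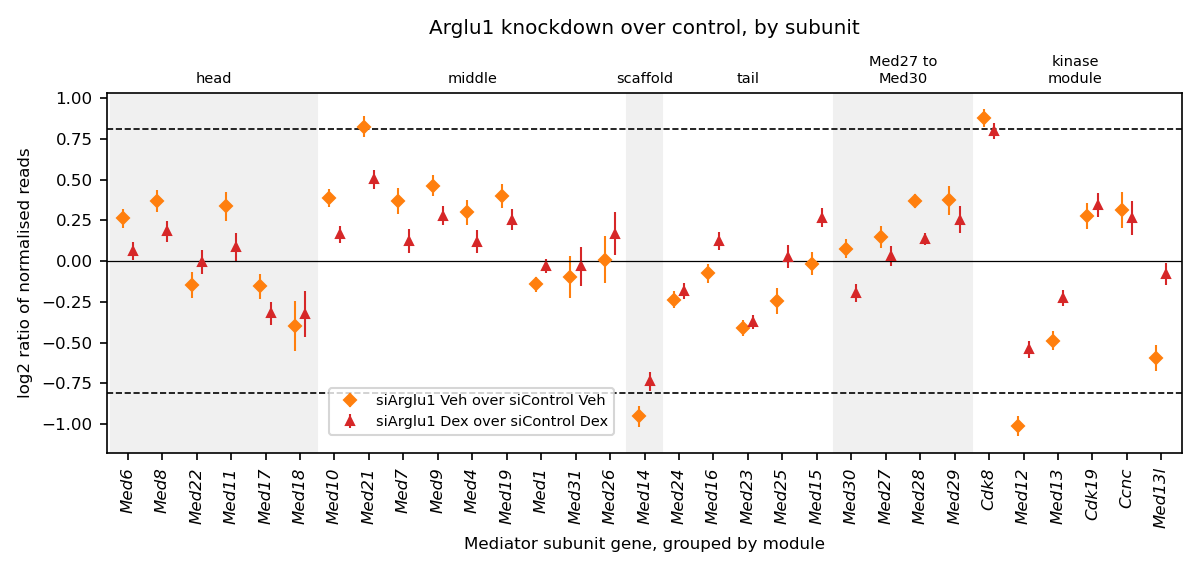
Log2 ratio of normalised reads, siArglu1 over siControl, for the 31 Mediator subunit genes in vehicle (diamonds) and in Dex (triangles), with exact 95% intervals that cover counting error only and dashed lines at 0.81 in each direction. Med12, Med14, Cdk8 and Med21 pass the dashed lines in vehicle, and in Dex Cdk8 comes nearest at 0.80.

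The ratios moved with gene length, in the subunit genes and in all genes. The length is that of mappable positions, computed from reads and cRPKM. Across genes, which are not independent replicates and share the same libraries, Spearman's rho between length and log2 ratio was -0.40 over 12484 genes for knockdown in vehicle and -0.23 in Dex, and over the 31 subunit genes it was -0.56 and -0.30. In vehicle the 12 subunit genes shorter than 1500 bases had a median of 0.32, beside 0.30 for all genes of that length, the 7 between 1500 and 3000 bases 0.01, beside 0.09, the 7 between 3000 and 6000 bases -0.01, beside -0.17, and the 5 longer than 6000 bases -0.60, beside -0.44. The 5 long genes were Med1, Med12, Med13, Med13l and Med14, which hold the 3 lower genes of the kinase module.

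With the trend of all genes on length removed, the log2 ratio in vehicle was -0.63 for Med12 and -0.56 for Med14, below the size of 0.81, and 0.49 for Med21, while that of Cdk8 was 0.90. By this measure 0 genes were lower by 0.81, beside 7.1% of all genes, and 1 was higher, beside 6.01%. Med13 and Med13l, at -0.49 and -0.60 before, stood at 0.07 and -0.09, so that the sign of Med13 turned. The sign turned for 6 of the 31 genes in vehicle and for 9 in Dex. Med1 went from -0.14 to 0.31. Cdk19 stood at 0.59 and Ccnc at 0.38, and in Dex the values were 0.80 for Cdk8, 0.49 for Cdk19 and 0.29 for Ccnc. The part of gene length, or of RNA quality, in the knockdown ratios was not tested.

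**Figure D3:**
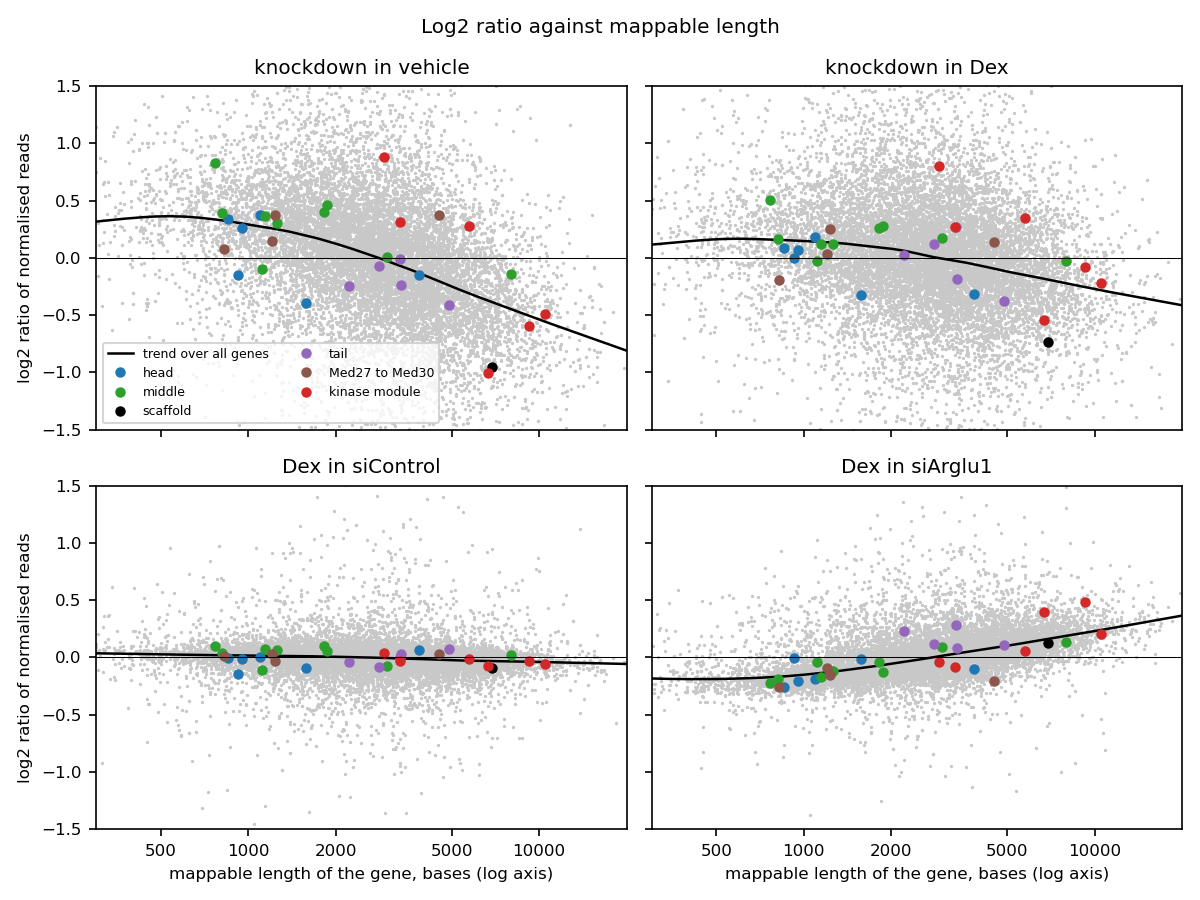
Log2 ratio of normalised reads against mappable length on a log axis, in 1 panel for each of the 4 pairs of libraries, with all genes tested in grey (those outside the axes are not drawn), a lowess trend over them in black and the 31 Mediator subunit genes coloured by module. The trend falls with length for knockdown in vehicle, falls less for knockdown in Dex and rises for Dex in siArglu1, and the subunit genes lie around it, with Cdk8 well above it in both knockdown panels.

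The second comparison asks whether 4 h of Dex changed the subunit genes. By a log2 ratio of 1, the size taken for Dex, 0 of 31 genes changed in siControl and 0 of 31 in siArglu1, beside 0.464% and 0.392% of all genes. In siControl the ratios of the 31 genes were between -0.15 and 0.10, with a median of 0.00. Med22 was the lowest, and Med19 and Med21 had the highest ratios, 0.10 each. Med1, with 118 CPM in siControl Veh and 120 in siControl Dex, had a ratio of 0.02, from -0.02 to 0.06.

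In siArglu1 the spread was wider, from -0.26 for Med30 to 0.48 for Med13l, with a median of -0.04. Med13l went from 32.9 to 46.0 CPM, with an interval of the log2 ratio from 0.41 to 0.56, and Med12 from 44.8 to 58.8 CPM, with a ratio of 0.39, from 0.33 to 0.46. The 5 tail genes were all above 0, between 0.08 and 0.28, and the 6 head genes all below 0, between -0.26 and -0.0038, with 4 of the 6 intervals below 0. Of the 31 subunit genes, 10 had an interval above 0 and 13 below. The shares of all genes above 0 or with an interval off 0 were not counted, but their quartiles were -0.11 and 0.12. These ratios moved with length as well, with a Spearman's rho across genes of 0.74 over the 31 subunit genes and 0.54 over all genes, and with the trend removed the range was from -0.29 to 0.27, 5 of 5 tail genes were above 0 and 4 of 6 head genes below 0, since Med22 stood at 0.16 and Med18 at 0.076. With the trend left in, the absolute ratio was the larger in siArglu1 for 26 of 31 genes, beside 67.2% of all genes. Likewise 11 of the 31 had the same sign in both Dex pairs, beside 45.7% of all genes. Neither count was repeated with the trend removed, and the part of length in them was not tested.

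The splicing of the subunit genes was examined with the percent spliced in (PSI), the share of transcripts of an exon or splice site that include it. The deposited tables listed 242 cassette exon, Alt3 and Alt5 events in 30 of the 32 genes, of 91656 in all, and no microexon in any of them. Of these, 197 events in 28 genes could be compared, since they had a PSI in every library and 3 or more libraries with a coverage score of at least LOW, as did 57183 events in all. The coverage of cassette exons is given only in classes, such as OK and the higher SOK, so that no interval of a PSI is given. At Alt3 and Alt5 sites OK stood for 40 to 99 and SOK for 100 or more junction reads. Whether these ranges hold for cassette exons is not known here. The PSI of the subunit events varied little. After knockdown 184 of 197 were within 5 PSI in vehicle, or 93.4%, beside 87.9% of all events, and 182 of 197 in Dex, or 92.4%, beside 89.2%. Of 210 splice sites and exons in these events, 27 in 15 genes reached 10 PSI in some library and stayed at or under 90 PSI in some library. The share of all events in that range was not counted, and its part in the small changes was not tested.

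A change of at least 15 PSI was seen in 2 of 197 events after knockdown in vehicle, beside 1.96% of all events, and in 1 of 197 in Dex, beside 1.52%. These 3 were cassette exons of Med1, Med15 and Ccnc, and all were included more after knockdown. With complex or unbalanced cassette events left out, 0 subunit events passed in vehicle, beside 1.44%, and 0 in Dex, beside 1.09%, since the exon of Med15 is listed as a complex event and those of Med1 and Ccnc carry a code for unbalanced reads at the junctions. Dex changed 0 of 197 events in siControl, beside 0.719%, and 0 of 197 in siArglu1, beside 0.948%, and the largest change by Dex was 11.1 PSI in siControl and 10.3 PSI in siArglu1.

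The exon of Med1 lies at chr11:98031391-98031754 of mm9, the build in the submitters' processing notes, and is 364 bases long, which is not a multiple of 3. Its PSI was 11.5 and 13.2 in siControl and 32.7 and 24.8 in siArglu1 (Veh and Dex), so that both siArglu1 libraries were above both siControl libraries. The change after knockdown was 21.2 PSI in vehicle and 11.6 PSI in Dex, with a coverage of OK in every library. In GENCODE M21, matched by the lengths of the exon and its introns, none of the transcripts of Med1 has it as an internal exon, and it is the start of the last exon, of 530 bases, of a noncoding transcript of the gene. The 3 coding transcripts that span it skip it, as part of an intron of 1495 bases. Its first 120 bases are shown because the reading frame that enters from the exon before meets a stop codon, in capitals, after the first 5 bases, and 5 stop codons in all lie in that frame of the exon.
Med1 exon: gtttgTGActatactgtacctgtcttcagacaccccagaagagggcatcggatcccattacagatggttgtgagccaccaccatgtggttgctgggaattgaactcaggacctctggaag

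The exon of Med15, whose product is a tail subunit that binds activators, lies at chr16:17663470-17663589 of mm9. Its PSI was 59.9, 63.6, 79.5 and 74.4, again with both siArglu1 libraries above both siControl libraries. The change was 19.7 PSI in vehicle and 10.8 PSI in Dex, with a coverage of SOK in every library. It matches exon 9 of 18 of a coding transcript, and its 120 bases are 40 codons with 0 stop codons in frame. It is shown whole, with the first and the last codon in capitals, because inclusion and skipping keep the same reading frame.
Med15 exon: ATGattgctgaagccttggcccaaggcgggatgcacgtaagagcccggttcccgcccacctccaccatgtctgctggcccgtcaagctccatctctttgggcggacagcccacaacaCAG

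The exon of Ccnc lies at chr4:21674630-21674723 of mm9 and is 94 bases long. Its PSI was 54.4, 52.6, 66.9 and 68.0, higher in both siArglu1 libraries than in both siControl libraries, with a change of 12.5 PSI in vehicle and 15.4 PSI in Dex and a coverage of SOK in every library. It matches exon 12 of 13 of a coding transcript and holds that transcript's last 49 coding bases and its stop codon. When it is skipped, the next exon supplies 52 coding bases and another stop codon. Both ends of the reading frame are shown, with the stop codon in capitals, because the annotated transcripts with and without the exon differ in the C-terminal end of cyclin C.
Ccnc end with the exon: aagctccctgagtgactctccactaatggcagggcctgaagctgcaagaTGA
Ccnc end without the exon: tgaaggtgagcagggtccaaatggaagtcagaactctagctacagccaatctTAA

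**Figure D4:**
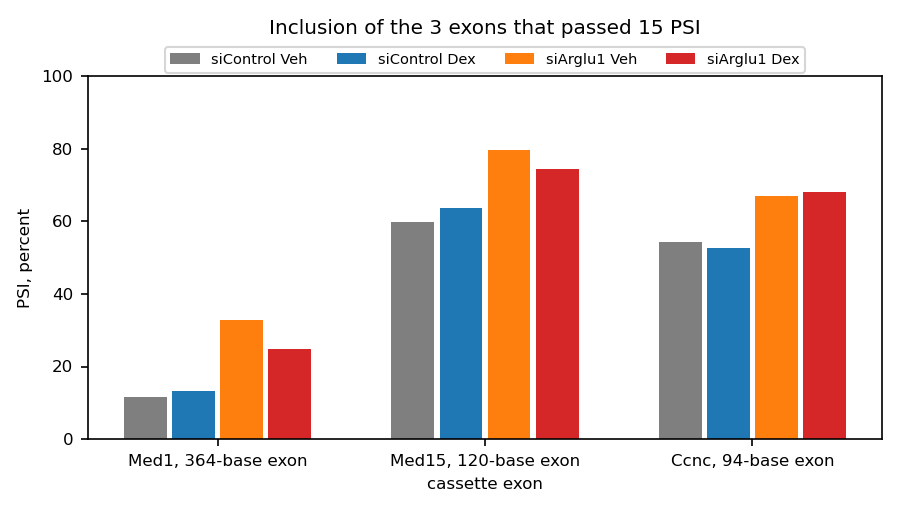
PSI in percent of the 3 cassette exons of Mediator subunit genes that changed by at least 15 PSI in a knockdown pair, with 1 bar per library and no error bar since each group is 1 library. In all 3 exons both siArglu1 bars are taller than both siControl bars, and Dex and vehicle bars of the same siRNA differ by at most 7.9 PSI.

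Just short of the threshold were a 72-base exon of Med25, with 69.8, 66.1, 77.2 and 80.9 PSI and changes after knockdown of 7.3 and 14.9 PSI, and a 114-base exon of Cdk8, with 41.3, 38.2, 32.2 and 25.5 PSI and changes of -9.1 and -12.7 PSI. These exons were chosen after their values were seen. The exon of Cdk8 was included less in both siArglu1 libraries, in which the level of the gene was higher. It carries a code for unbalanced reads at the junctions in every library, unlike the exon of Med25.

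For the other genes of the initiation machinery, counts are given for lists named by function, beside 8.77% lower and 7.0% higher of all genes after knockdown in vehicle and 5.93% and 6.19% in Dex. Of 13 RNA polymerase II subunit genes, 1 was lower and 0 were higher by 0.81 after knockdown in vehicle, and likewise 1 and 0 in Dex, with medians of 0.28 and 0.07. The gene in vehicle was Polr2a, the largest subunit, with log2 ratios of -1.17 in vehicle and -0.69 in Dex, and the gene in Dex was Polr2g, with -0.67 and -0.97. Of 33 symbols of general transcription factors, which had 34 rows since Taf9 has a pair of identifiers, Taf9b was higher in both pairs, with 1.44 and 1.69, and Gtf2b, which encodes TFIIB, was lower in Dex alone by that size, with -0.76 and -0.86. Their medians were 0.02 and -0.09. Of 8 elongation factor genes tested, only Nipbl, the loader of cohesin, passed in vehicle, with -1.03 and -0.54 in Dex, and the medians were -0.35 and -0.17. With the length trend removed Nipbl stood at -0.55 in vehicle, and 0 of the 8 passed in either pair. By that measure Polr2a stood at -0.85 and Polr2g at -0.996 in vehicle, which makes 2 RNA polymerase II genes lower, and Gtf2b at -1.01 was lower in vehicle as well. No gene of these 3 lists passed the size of 1 for Dex.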

How the data were processed

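The authors deposited raw read counts for each gene in each library, and the mappability-corrected RPKM (cRPKM) of each gene, and 2 unnamed columns with their own ratios of cRPKM, which were not used. The authors also deposited the PSI of cassette, Alt3 and Alt5 events as a percent, with a coverage score in words. The submitters' processing notes name Bowtie and mm9, and the paper names vast-tools for PSI, without versions.

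Reads on genes, between 66074574 and 86541444 per library, were scaled with TMM (edgeR 4.0.16, R 4.3.3) on the 12497 genes whose reads in the 4 libraries summed to 75 or more, and converted to log2 CPM (prior count of 1). With 1 library per group, a gene was counted by size (0.81 for knockdown, 1 for Dex) and an event by 15 PSI. Intervals are exact conditional intervals at the 95% level. Events were compared with a PSI in every library and at least LOW coverage in 3, and the reference site of an Alt event was left out. A lowess (span 0.3, 3 iterations) removed the trend on length. Alternatives were other scalings, filters, thresholds and additive models (edgeR quasi-likelihood and DESeq2 1.42.0), with 1 residual degree of freedom. Scripts were tested on simulated data. Exon sequences are from GENCODE M21 transcripts, matched by gene identifier and by exon and intron lengths; no coordinate was converted between builds.

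Values in every library are given for genes past the size in a knockdown pair, the kinase module, the 3 highest and 3 lowest mean cRPKM, Med1 and Med14; every event past 15 PSI is named. The members, modules and gene lists were chosen with earlier results of these data known.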

Additional observations from a re-analysis of the deposited data

Results flagged for a closer look

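Some subunit genes had log2 ratios of opposite sign in the 2 pairs of the same contrast, with both 95% counting intervals off 0. The difference between pairs was not tested, since each pair has 1 library per group, and each size was below that used for a change. For knockdown, Med30 stood at 0.077 in vehicle and -0.19 in Dex, and Med16 at -0.073 and 0.12. With the length trend removed Med30 had the same sign in both, -0.25 and -0.35. For Dex, the ratio in siControl and then in siArglu1 was 0.096 and -0.23 for Med21, -0.054 and 0.21 for Med13, -0.078 and 0.39 for Med12, -0.083 and 0.11 for Med16, and -0.091 and 0.12 for Med14. With the length trend removed, the signs of Med13 (-0.013 and -0.030) and Med14 (-0.059 and -0.035) were no longer opposite, while those of Med21 (0.077 and -0.054), Med12 (-0.046 and 0.24) and Med16 (-0.079 and 0.11) still were, and the part of length in these ratios was not tested.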

How the results depend on the processing

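No paired analysis was possible because each group is 1 library, and no library could be left out of a pair. The additive models below take treatment as a term. For the counts and medians, 26 alternative values moved and 50 stayed within the bounds set for no change, among them those with DESeq2 size factors, a prior count of 5 and no minimum on reads. With the length trend removed, 0 genes were lower and 1 higher after knockdown in vehicle, and the median in Dex was 0.0080. On cRPKM, 1 gene was higher in vehicle. At a size of 0.58, 1 gene was lower and 1 higher in Dex, beside 11.3% and 11.9% of all genes. The additive models, which join vehicle and Dex, called 8 genes lower and 13 higher by edgeR at an adjusted p of 0.05, beside 30.9% and 30.8% of all genes, and 6 lower and 9 higher by DESeq2, beside 25.2% and 22.9%. For events, without a minimum on the score 9 and 8 changed after knockdown in vehicle and Dex and 8 and 5 with Dex in siControl and siArglu1, beside 6.85%, 6.1%, 5.3% and 5.73% of all events. At 10 PSI the numbers were 4, 5, 1 and 1, beside 4.4%, 3.66%, 2.16% and 2.73%. At 25 PSI 0 changed in either knockdown pair, beside 0.381% and 0.322%, and the largest changes were 21.2 PSI in vehicle and 15.4 PSI in Dex. With complex or unbalanced events left out it was again 0 in each, beside 1.44% and 1.09%. Why these counts moved was not tested. PSI of cassette exons has no read numbers here, so its counting error is unknown.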
